A study of Mus musculus with 4 samples.

Results

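The keratin genes were followed in medullary thymic epithelial cells (mTECs), the epithelial cells of the thymic medulla, from female and male mice. Members were all genes of the deposited count table whose symbol is Krt followed by digits alone, which gave 48 of 23366 gene symbols. Of these, 26 encode type I and 22 type II keratins. A total of 41 members had at least 1 count, 19 had at least 10 counts over the 4 libraries and are described one by one, and 11 passed edgeR's filter on low counts and were tested. Members that passed the filter made up 22.9% of the keratins, and genes that passed it made up 46.5% of all symbols.

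The mice were C57BL/6 wild types of both sexes, aged 6 to 8 weeks and not treated. Live cells negative for CD45 and positive for MHCII with low Ly51 were sorted, and the cells of 10 mice were pooled for each library, which gave 2 pools from females and 2 from males. Each sex was therefore compared over 2 pooled libraries, and the labels do not say what the pool numbers 1 and 2 stand for. The female libraries held 3508921 (pool 1) and 1976272 (pool 2) reads on genes, and the male libraries 7103627 (pool 1) and 3344471 (pool 2). Levels are normalized CPM, counts relative to the reads of the library with TMM factors that allow for differences in its makeup. A gene with no count may have had up to 3, a limit of 0.815 (female pool 1), 1.48 (female pool 2), 0.358 (male pool 1) and 1.16 (male pool 2) normalized CPM that covers counting error only.

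Keratins are the intermediate filament proteins of epithelial cells. A type I and a type II keratin join as an obligate pair, and these pairs assemble into filaments that are anchored at desmosomes and hemidesmosomes. Simple, single-layered epithelia use Krt8 with Krt18, the basal layer of stratified epithelia uses Krt5 with Krt14, and the layers above it use other pairs such as Krt1 with Krt10. Hair shafts and their sheaths have keratins of their own. In the mouse thymus, Krt8 and Krt18 are known mainly as proteins of cortical epithelium, Krt5 and Krt14 mark much of the medulla, and Krt10 marks its most differentiated, cornifying cells.

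In the mm9 assembly (NCBIM37), 46 of the 48 members were found in the annotation used here, in 2 clusters. On chromosome 11, 25 members, all of type I, lay within 1037 kb between positions 99094075 and 100131185. On chromosome 15, 20 type II members and the type I gene Krt18 lay within 685 kb between positions 101177875 and 101862457. Krt8 (chr15:101827142-101834773, minus strand, 9 exons) and Krt18 (chr15:101858647-101862457, plus strand, 7 exons) are neighbours at the end of this cluster. Their starts face each other, and 23.9 kb separate them. The 100 bases before the start of each are shown because the genes are partners and had nearly the same ratio of counts in every pool. The sequences are RefSeq's and were placed in NCBIM37 by an exact match. Each runs 5′ to 3′ on the strand of its gene, at chr15:101834774-101834873 on the minus strand for Krt8 and at chr15:101858547-101858646 on the plus strand for Krt18, and capitals mark the letters TATAA.
Krt8: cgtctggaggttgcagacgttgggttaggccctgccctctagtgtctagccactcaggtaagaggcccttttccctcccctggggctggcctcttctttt
Krt18: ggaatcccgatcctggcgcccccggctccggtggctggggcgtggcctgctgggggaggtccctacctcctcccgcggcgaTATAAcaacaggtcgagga

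The letters TATAA began 19 bases before the start of Krt18 and were not among the 100 printed for Krt8. Across the 34 keratins with a RefSeq promoter sequence, the 250 bases before the start held TATAA, read on the strand of the gene, in 22 (64.7%). The share over the 27025 genes with such a sequence was 18.4%. The longer letters TATAAA, each match of which is also a match of TATAA, were found in 14 keratins (41.2%) and in 8.94% of all promoters. GGGCGG, searched on both strands, was found in 2 keratins (5.88%), Krt7 and Krt75, and in 35.4% of all promoters. CCAAT, also searched on both strands, was found in 13 keratins (38.2%) and in 37.5% of all promoters.

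Keratin genes resemble each other, and this bears on how many of their reads could be counted. Reads that aligned to several places were not counted on genes, and they made up 27.3% to 33.2% of all the reads listed for a library. The reads were 50 bases long, so every 50-base window of the annotated exons was looked up in the NCBIM37 genome. In Krt8, 44.8% of the windows occurred once, and the other 753 of 1364 windows also occurred on chromosome 7 between positions 24142113 and 24143830, within the span of Nlrp4e but outside its exons. In Krt18, 99.5% of the windows occurred once, and in Krt17 94.9%. Krt16, at 63.3%, shared 266 windows with the pseudogene Gm11597 and 188 with Krt14, and Krt14, at 82.0%, shared 188 with Krt16 and 55 with Krt17. Krt5 stood at 92.4%, with 101 windows shared with Krt6a. For Krt7 it was 98.7%, and for Krt10, Krt19 and Krt20 it was 100%. Of the 12 hair shaft keratins with annotated exons, 6 were at 100% and 5 were under 75%, from 55.9% for Krt86 to 72.2% for Krt31. For Krt8, Krt14, Krt16 and these 5 hair keratins, reads from the shared windows were not counted on the gene where they aligned to each place, so their levels are lower limits in this respect.

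A stretch of Krt8 and one of Krt14 are shown, since a read from either could not be placed. Both are on the minus strand of NCBIM37 and are printed 5′ to 3′ along the gene. The stretch of Krt8, at chr15:101827374-101827423, occurs 2 times in the genome, and that of Krt14, at chr11:100065437-100065486, occurs 3 times, in Krt14, Krt16 and Krt17.
Krt8: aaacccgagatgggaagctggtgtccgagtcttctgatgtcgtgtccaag
Krt14: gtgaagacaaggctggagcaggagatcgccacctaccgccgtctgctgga

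Krt8, Krt18 and Krt17 stood well above the other keratins in all 4 pools. To compare genes, levels were divided by the length of the annotated exons. Krt8, the type II keratin of simple epithelia, had 49.3 ± 23.4 normalized CPM per kb (SD, n = 4 pools), its partner Krt18 had 42.3 ± 21.0, and Krt17, a type I keratin of skin appendages and of stressed epithelium, had 36.3 ± 18.3. The ranges of these 3 genes overlapped, although within each pool the order per kb of exons was Krt8, Krt18 and Krt17. The lowest pool of Krt17 lay above the highest pool of Krt14, the next gene in the order. These were the 3 highest keratins in every pool, also when levels were taken per exon window found once or per kb of coding sequence.

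**Figure D1:**
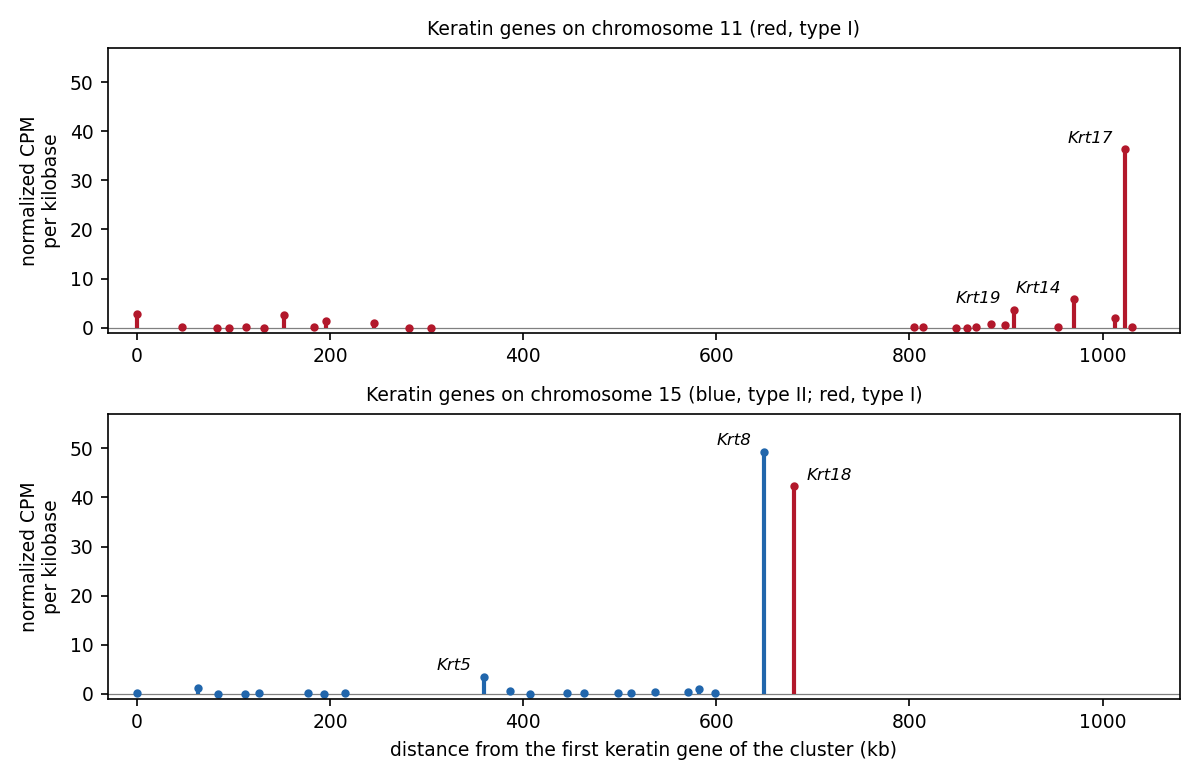
Mean level over the 4 pools (vertical axis, normalized CPM per kb of exons) against distance from the first keratin gene of the cluster (horizontal axis, kb) for the 25 keratins on chromosome 11 (upper panel) and the 21 on chromosome 15 (lower panel), with type I genes in red and type II in blue. Krt8 at 49.3 and Krt18 at 42.3 stand side by side at the end of the chromosome 15 cluster, and Krt17 at 36.3 stands near the end of the chromosome 11 cluster.

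After this gap the levels per kb of exons declined in small steps. Krt14, the type I keratin of basal layers, had 5.85 ± 1.63 normalized CPM per kb, Krt19, a type I keratin of simple and ductal epithelia, had 3.70 ± 2.37, and Krt5, the type II partner of Krt14, had 3.53 ± 2.03. They were followed by Krt222 at 2.85 ± 0.887, the suprabasal Krt10 at 2.51 ± 1.33 and the stress keratin Krt16 at 2.05 ± 1.57. Krt20, a keratin of gut epithelium, had 1.43 ± 1.22 and Krt7, a keratin of ducts and glands, had 1.29 ± 0.580. The other 8 keratins with at least 10 counts had between 0.147 (Krt80) and 1.08 (Krt79) normalized CPM per kb. From Krt14 downwards each gene's range over the pools overlapped that of the next gene, so neighbours in this order did not differ beyond their spread. The places of Krt7 and Krt222 depend on the length used, since most of their annotated exon length is not coding. Krt7 moved from place 11 to place 6 and Krt222 from place 7 to place 4 per kb of coding sequence.

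The pool values of the leading genes are given as normalized CPM, in the order female pool 1, female pool 2, male pool 1 and male pool 2. Krt8 had 43.2, 122, 63.2 and 128, from 159, 246, 529 and 332 counts. Krt18 had 26.4, 84.1, 42.7 and 83.9, and Krt17 had 22.6, 82.6, 44.4 and 79.3. In all 3 genes both pools numbered 2 were above both pools numbered 1, and the ranges of the sexes overlapped.

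**Figure D2:**
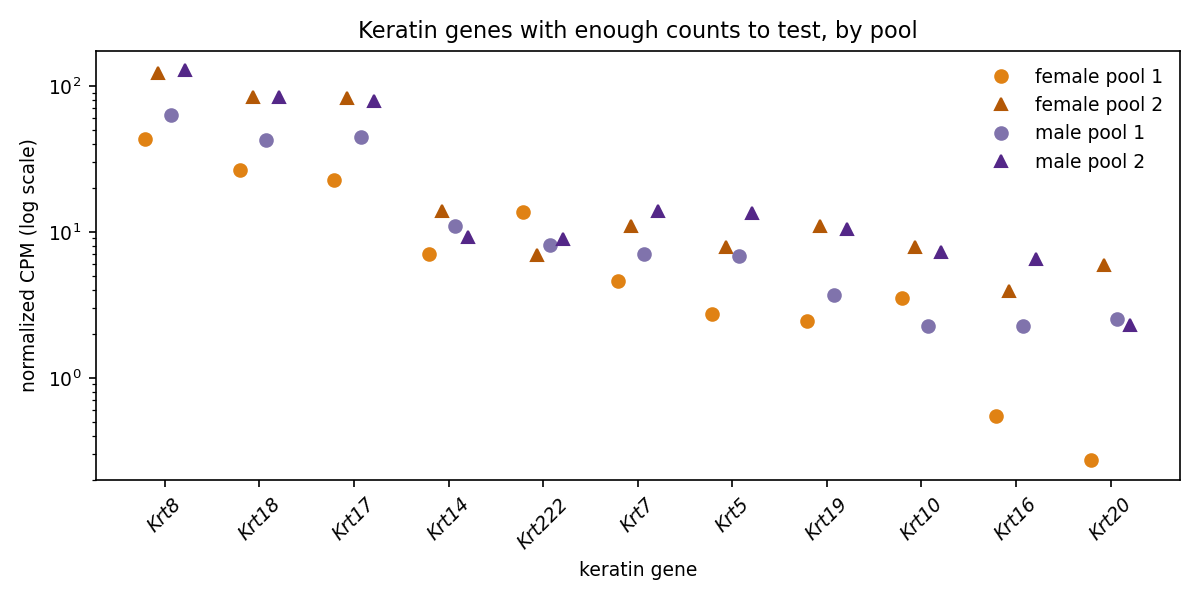
Level of the 11 tested keratin genes (horizontal axis) in each of the 4 pools (vertical axis, normalized CPM, log scale), with circles for pools numbered 1, triangles for pools numbered 2, orange for females and purple for males. Krt8, Krt18 and Krt17 lie between 22.6 and 128 in every pool, and the other 8 genes lie at or below 13.9.

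Of the 3991 counts on keratins, 2397 (60.1%) fell on the 6 simple keratins. The stress and appendage keratins Krt16 and Krt17 took 874 counts (21.9%), the 3 basal keratins 303 (7.59%) and the 13 suprabasal keratins 194 (4.86%). The 9 keratins of the inner root sheath and companion layer of the hair follicle took 41 counts (1.03%) and the 13 keratins of the hair shaft took 20 (0.501%). Krt222 and Krt42, which were put in no class, took 162 counts (4.06%), of which 155 fell on Krt222. Each class was named from what its genes are known for in other tissues.

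Simple keratins took 57.2% of the keratin counts in female pool 1 (Wilson 95% interval 52.8% to 61.5%), 61.9% in female pool 2 (58.5% to 65.3%), 58.8% in male pool 1 (56.5% to 61.2%) and 62.1% in male pool 2 (59.0% to 65.0%). These intervals overlapped in all 4 pools. Krt16 and Krt17 took 17.1% (14.0% to 20.6%), 22.7% (19.9% to 25.8%), 22.8% (20.8% to 24.8%) and 22.2% (19.7% to 24.9%) in the same order, with the interval of female pool 1 under that of male pool 1. Basal keratins took 7.63% (5.61% to 10.3%), 5.84% (4.40% to 7.73%), 9.08% (7.81% to 10.5%) and 6.37% (5.02% to 8.05%), with the interval of female pool 2 under that of male pool 1. Suprabasal keratins took 5.82% (4.08% to 8.24%), 5.97% (4.51% to 7.88%), 3.84% (3.03% to 4.86%) and 5.27% (4.05% to 6.83%), and these intervals overlapped. The intervals cover counting error only.

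All keratins together made up 0.0142%, 0.0390%, 0.0242% and 0.0300% of the counted reads in the same order of pools. Their summed levels were 135, 381, 205 and 387 normalized CPM. Simple keratins summed to 77.5, 236, 121 and 240 normalized CPM, stress and appendage keratins to 23.1, 86.6, 46.7 and 85.9, basal keratins to 10.3, 22.3, 18.6 and 24.6 and suprabasal keratins to 7.88, 22.8, 7.89 and 20.4. In each of these 4 classes both pools numbered 2 were above both pools numbered 1, except that with library size alone as the scaling this order was lost for basal keratins (10.9, 22.9, 22.1 and 19.2 CPM). Hair shaft keratins, at 1.36, 1.98, 0.717 and 1.93 normalized CPM over all 13 genes, rested on 5, 4, 6 and 5 counts.

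**Figure D3:**
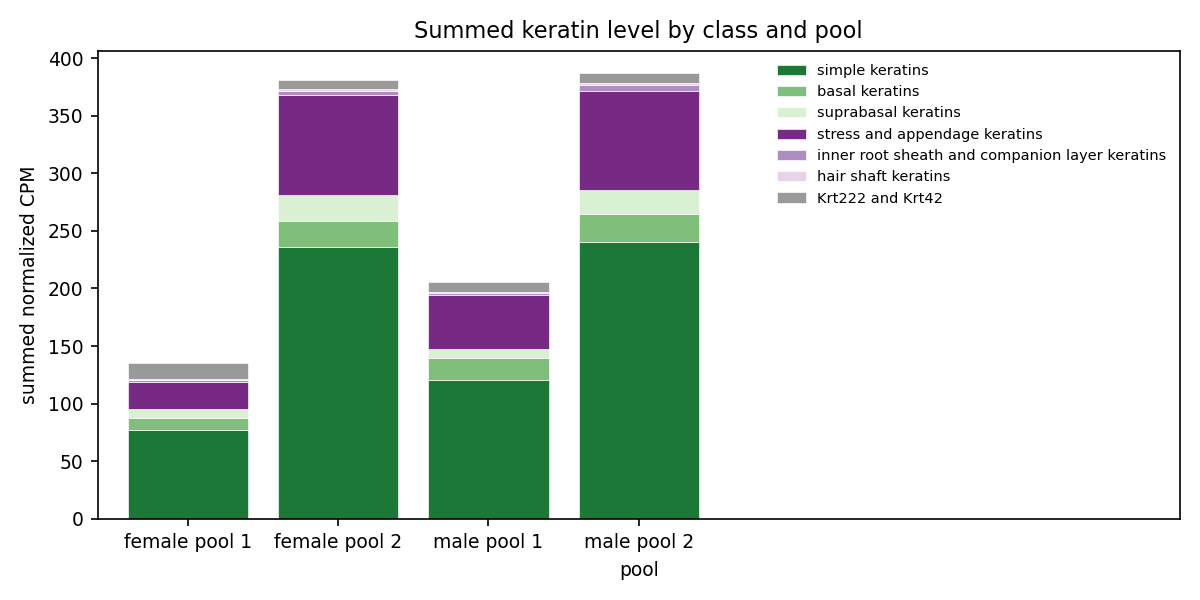
Summed level of the 48 keratins (vertical axis, normalized CPM) in each of the 4 pools (horizontal axis), stacked by class. The bars reach 135, 381, 205 and 387 normalized CPM, and simple keratins, in dark green, form 77.5, 236, 121 and 240 of these.

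Among the simple keratins outside the leading pair, Krt7 had 4.62, 10.9, 7.05 and 13.9 normalized CPM and Krt19 had 2.45, 10.9, 3.70 and 10.4. Krt20 had 0.272, 5.94, 2.51 and 2.31, from 1, 12, 21 and 6 counts, and Krt23, a type I keratin of simple epithelia that was not tested, had 0.544, 2.47, 1.67 and 1.93. All of these genes had their lowest level in female pool 1.

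Of the basal keratins, Krt14 had 7.07, 13.9, 10.99 and 9.24 normalized CPM. Krt5 had 2.72, 7.92, 6.81 and 13.5. Krt15, which also marks stem cells of the hair follicle, had 0.544, 0.495, 0.836 and 1.93 and was not tested. Krt14 was the one basal keratin with its highest level in female pool 2, and male pool 2 was highest for Krt5 and Krt15.

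Of the suprabasal keratins, Krt10 had 3.53, 7.92, 2.27 and 7.32 normalized CPM, and its pools numbered 2 lay above both pools numbered 1. Krt10's partner Krt1 was among 7 suprabasal genes with under 10 counts each (Krt1, Krt2, Krt4, Krt9, Krt12, Krt24 and Krt77), which had 46 counts in all. Krt79, a type II keratin of the upper hair follicle, had 0.544, 4.95, 0.478 and 3.08, and Krt13, a type I keratin of the lining of the mouth and oesophagus, had 0.815, 1.98, 0.358 and 3.08. Krt78 had 0.544, 1.48, 0.239 and 1.16. In Krt13, Krt78 and Krt79, as in Krt10, both pools numbered 2 were above both numbered 1, on 2 to 10 counts a pool for Krt78 and Krt79 and 3 to 8 for Krt13. Krt76, a type II keratin of the palate, had 1.09, 0.990, 1.08 and 1.16, and Krt80 had 0.544, 0.495, 0.717 and 0.770. Neither showed this order.

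Of the stress and appendage keratins, Krt16, which epidermis makes after wounding, had 0.544, 3.96, 2.27 and 6.55 normalized CPM, from 2, 8, 19 and 17 counts. It was lowest in female pool 1 and highest in male pool 2. Among the keratins of hair follicle sheaths, Krt71, a type II keratin of the inner root sheath, had 0.544, 1.48, 1.08 and 1.93 normalized CPM. Krt27, Krt28, Krt72, Krt73 and Krt75 had 22 counts in all, and Krt25, Krt26 and Krt74 had none. No hair shaft keratin reached 10 counts. Of these 13 genes, Krt31, Krt34, Krt36, Krt40, Krt81, Krt83, Krt84, Krt85 and Krt86 had 20 counts in all, and Krt32, Krt35, Krt39 and Krt82 had none. A keratin with no count was below what this depth could detect, and each pool's limit is the one given above.

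Krt222 went its own way, with 13.6, 6.93, 8.12 and 8.86 normalized CPM, from 50, 14, 68 and 23 counts. It was highest in female pool 1, where none of the other 10 tested keratins had its highest level. It took 10.0% of the keratin counts in that pool and 1.82%, 3.96% and 2.29% in the others. On the chromosome 11 cluster it is the first member, at chr11:99094075-99105399 on the minus strand.

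Partners of a pair were compared within pools, where the library's depth and composition cancel. Krt18 made up 37.9% of the counts on Krt8 and Krt18 in female pool 1 (Wilson 95% interval 32.2% to 44.0%), 40.9% in female pool 2 (36.2% to 45.7%), 40.3% in male pool 1 (37.1% to 43.6%) and 39.6% in male pool 2 (35.6% to 43.8%). These intervals overlapped in all 4 pools, while the level of Krt8 ran from 43.2 to 128 normalized CPM. Per kb of exons, Krt8 stood at 1.27, 1.12, 1.15 and 1.18 times Krt18. Per window found once, which leaves out the part of Krt8 whose reads could not be placed, it stood at 2.82, 2.49, 2.55 and 2.62 times Krt18. Krt5 stood at 0.309, 0.459, 0.497 and 1.17 times its partner Krt14 per kb, a wider spread of ratios across the pools. These ratios rest on 10, 16, 57 and 35 counts of Krt5 and 26, 28, 92 and 24 of Krt14. The difference between the pairs was not tested. Krt8 had 6.12, 8.79, 5.75 and 13.8 counts for each count on Krt14, and Krt17 had 3.19, 5.96, 4.04 and 8.58. Summed per kb of exons, type I keratins stood at 1.63, 1.80, 1.82 and 1.66 times the type II keratins, and per window found once at 0.819, 0.917, 0.935 and 0.848 times, so which type was higher depends on how Krt8's uncountable windows are treated.

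The libraries were checked against their label with marker genes. All 9 epithelial markers had counts, led by Spint2, Epcam and Cldn7, with Epcam, an adhesion molecule of epithelia, at 37.0, 42.6, 44.0 and 51.6 normalized CPM. Of 8 mTEC markers 7 had counts, led by Cd80, Aire and Tnfrsf11a, with Aire, the regulator that gives mTECs their tissue-specific antigens, at 19.3, 31.7, 19.7 and 28.9. Ccl21a, a chemokine of immature mTECs, had no count under this symbol. Markers of B cells and of myeloid cells were far more abundant than either list, although the sort took cells negative for CD45. The 8 B cell genes summed to 4571, 3015, 3776 and 2514 normalized CPM, led by Cd79a and Cd79b, with Cd79a, a part of the B cell receptor, at 2434, 1542, 1861 and 1456. This sum was 33.8, 7.91, 18.4 and 6.50 times that of all keratins. Genes of dendritic cells and macrophages summed to 2063, 3378, 1543 and 4399, led by Lyz2, Flt3 and Cd68, with Lyz2, the lysozyme of myeloid cells, at 1161, 2397, 841 and 3327. Thymocyte genes, led by Lck, Cd8a and Cd3g, summed to 375, 320, 921 and 389. Fibroblast genes, led by Dcn, Thy1 and Col3a1, summed to 18.8, 54.9, 87.6 and 97.8, and cortical epithelial genes, led by Ly75, Psmb11 and Ccl25, to 63.1, 73.2, 58.8 and 95.9. All 8 markers of B cells, of thymocytes and of fibroblasts, and all 9 myeloid markers in the table, had counts. Their part in the keratin levels was not tested. In these bulk libraries fewer cells of a type and less RNA per cell cannot be told apart.

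The study asked whether the mTEC transcriptome differs between male and female mice, and for the keratins no difference was called. With edgeR's quasi-likelihood test 0 of 10865 genes (0%) passed the adjusted threshold of 0.05, the lowest adjusted value being 0.186. Before adjustment 48 genes (0.442%) had a p under 0.05, none of them a keratin. All 11 tested keratins had an adjusted p of 1. The log2 fold change of male over female was above 0 for 7 of the 11, with a median of 0.20, against 53.2% of all tested genes with a median of 0.03. Leaving out 1 pool gave keratin medians from -0.42 (without female pool 1) to 1.29 (without female pool 2), so the direction depends on single pools. Both male pools were above both female pools for 9.47% of all tested genes and below both for 11.7%, and for none of the 11 tested keratins in either direction.

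In females the mean level of Krt8 was 82.5 ± 55.5 normalized CPM (SD, n = 2 pools) and in males 95.5 ± 45.7 (SD, n = 2 pools), a log2 fold change of 0.21 with a standard error of 0.58. Krt18 had 55.2 ± 40.8 and 63.3 ± 29.2, a log2 fold change of 0.20 (SE 0.60), and Krt17 had 52.6 ± 42.5 and 61.9 ± 24.7, a log2 fold change of 0.24 (SE 0.62). In all 3 the SD within each sex was larger than the difference between the sexes, and the ranges of the sexes overlapped. Without female pool 1 the log2 fold changes turned to -0.35 for Krt8, -0.42 for Krt18 and -0.42 for Krt17. Without female pool 2 they were 1.17, 1.29 and 1.48.

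The study related human AIRE RNA to KRT5 RNA in thymus tissue and outlined mouse medulla by Krt5 protein staining. In these sorted mouse mTECs Krt5 RNA stood at 5.32 ± 3.68 normalized CPM in the female and 10.1 ± 4.71 in the male pools. This is another sample type than the human tissue and another measure than the staining. The log2 fold change was 0.96 (SE 0.65), with an adjusted p of 1 in edgeR's quasi-likelihood fit. Its partner Krt14 had 10.5 ± 4.80 and 10.1 ± 1.24, a log2 fold change of -0.01 (SE 0.47). Krt10 had 5.73 ± 3.10 and 4.79 ± 3.57, a log2 fold change of -0.31 (SE 0.75). The study measured Krt10 by quantitative RT-PCR in sorted mTECs, as an antigen independent of Aire, and reported similar levels in both sexes. The log2 fold change was 1.04 (SE 1.004) for Krt16, 0.44 (SE 0.59) for Krt7, 0.08 (SE 0.83) for Krt19, -0.17 (SE 1.12) for Krt20 and -0.31 (SE 0.47) for Krt222. Leaving out 1 pool gave 0.33 to 1.89 for Krt5 and 0.07 to 2.91 for Krt16. It turned the direction of Krt7, Krt10, Krt14, Krt19, Krt20 and Krt222. By class, the summed level in males stood at 1.15 times that in females for simple keratins, 1.33 for basal, 0.923 for suprabasal and 1.21 for stress and appendage keratins, all within the spread of the pools. When 1 pool was left out these ratios ran from 0.765 to 2.33, 0.972 to 2.10, 0.515 to 1.79 and 0.765 to 2.87 in the same order, with each highest value reached without female pool 2.

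**Figure D4:**
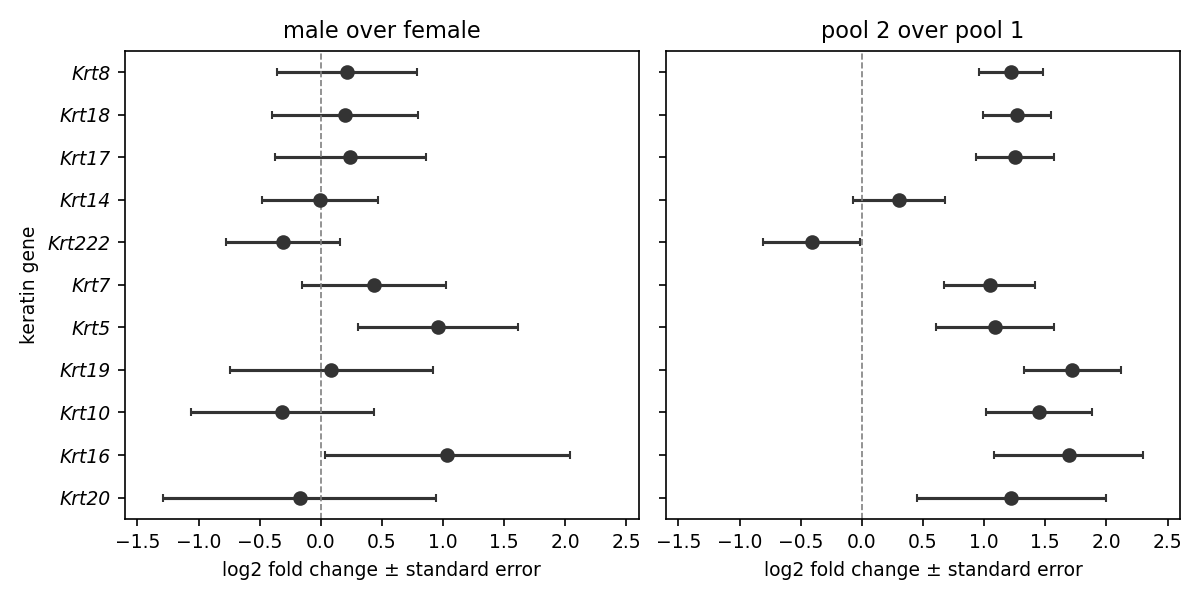
Log2 fold change with its standard error (horizontal axes, edgeR quasi-likelihood fit over 4 pools) of the 11 tested keratins (vertical axis), male over female on the left and pool 2 over pool 1 on the right, with a dashed line at 0. On the left the values run from -0.31 to 1.04 around a median of 0.20, and on the right from -0.41 (Krt222) to 1.72 (Krt19) around a median of 1.22.

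The pools numbered 2 had more keratin RNA than the pools numbered 1 in both sexes, by 2.81 times in females and 1.89 times in males for the sum of all keratins. With library size alone as the scaling these ratios were 2.75 and 1.24. The second comparison set both pools 2 against both pools 1 with pool number as the only term, as a description of the pools. It was chosen because earlier results of these data showed that pool number separated more genes than sex. Its p-values and calls are therefore no independent evidence of a difference. Of 10865 genes, 202 (1.86%) were called higher in pool 2 and 19 (0.175%) lower at an adjusted threshold of 0.05 in edgeR's quasi-likelihood fit, and none of the 11 keratins was. With library size alone as the scaling, 376 genes were called higher and 388 lower, and again no keratin. At an unadjusted p under 0.05, 2571 genes (23.7%) differed, of which 1569 (14.4% of those tested) were higher in pool 2. Among these were 7 of the 11 keratins, Krt7, Krt8, Krt10, Krt16, Krt17, Krt18 and Krt19. Both pools 2 were above both pools 1 for 2880 tested genes (26.5%) and for 8 of the 11 tested keratins, the same 7 and Krt5. They were below both for 29% of the tested genes and for none of the 11. The keratins had a median log2 fold change of 1.22, with 10 of 11 above 0, and all genes one of -0.03, with 47.9% above 0. With library size alone as the scaling, the median of all genes moved by -0.32 and that of the keratins was 0.90.

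Krt8 had 53.2 ± 14.1 normalized CPM in the pools 1 and 125 ± 4.31 in the pools 2 (SD, n = 2 each). Its log2 fold change was 1.22 (SE 0.26), and edgeR's quasi-likelihood test gave an adjusted p of 0.0532. Krt18 had 34.5 ± 11.5 and 84.0 ± 0.132, a log2 fold change of 1.27 (SE 0.28, adjusted p = 0.0545 by the same edgeR test). The pools 2 lay close together and the pools 1 further apart in both genes.

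Krt17 had 33.5 ± 15.5 and 81.0 ± 2.35 normalized CPM, a log2 fold change of 1.25 (SE 0.32, adjusted p = 0.0675 by edgeR's quasi-likelihood test). Krt19 had 3.08 ± 0.889 and 10.6 ± 0.347, a log2 fold change of 1.72 (SE 0.40, adjusted p = 0.0579). Krt10 had 2.90 ± 0.894 and 7.62 ± 0.426, a log2 fold change of 1.45 (SE 0.43, adjusted p = 0.0977). In these 3 genes as well, the groups did not overlap and the test fell short of the threshold.

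These 5 genes sat close to the threshold, and other tests placed several of them past it. DESeq2 called 586 genes (5.39%) higher in pool 2, with Krt8, Krt17, Krt18 and Krt19 among them, and edgeR's fit with sex as a second term called 648 (5.96%) with the same 4 keratins. edgeR's exact test called 868 genes (7.99%) and added Krt10 and Krt16. Without the filter on low counts, 1035 of 17866 genes (5.79%) were called, with Krt8, Krt17, Krt18, Krt19 and Krt79 among the 41 keratins then tested. Upper-quartile normalization and library size alone called no keratin. Over these alternatives and those that left out a pool, the adjusted p of Krt8 ran from 0.000986 to 0.346 with edgeR and DESeq2, and its log2 fold change from 0.89 to 1.53.

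Krt16, Krt7 and Krt5 had larger adjusted p-values. Krt16 had 1.41 ± 1.22 normalized CPM in the pools 1 and 5.25 ± 1.83 in the pools 2, a log2 fold change of 1.69 (SE 0.61, adjusted p = 0.143 by edgeR's quasi-likelihood test). Krt7 had 5.84 ± 1.72 and 12.4 ± 2.10, a log2 fold change of 1.05 (SE 0.37, adjusted p = 0.138). Krt5 had 4.76 ± 2.89 and 10.7 ± 3.93, a log2 fold change of 1.09 (SE 0.48, adjusted p = 0.213). Without male pool 1 the log2 fold change was 3.19 for Krt16, 1.98 for Krt5 and 1.84 for Krt17, and without male pool 2 that of Krt5 was 0.61.

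The pools overlapped in the other 3. Krt14 had 9.03 ± 2.78 and 11.5 ± 3.26, a log2 fold change of 0.30 (SE 0.38, adjusted p = 0.666 by edgeR's quasi-likelihood test), and -0.01 with library size alone as the scaling. Krt20 had 1.39 ± 1.58 and 4.12 ± 2.57, a log2 fold change of 1.22 (SE 0.77, adjusted p = 0.372) that ran from 0.46 without female pool 2 to 3.67 without male pool 1. Krt222 had 10.9 ± 3.87 and 7.89 ± 1.36, a log2 fold change of -0.41 (SE 0.40, adjusted p = 0.568), and it was the one tested keratin below 0.

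By class, the mean summed level of the pools 2 was 2.40 times that of the pools 1 for simple keratins, 1.62 for basal, 2.74 for suprabasal and 2.47 for stress and appendage keratins. Within females these ratios were 3.05, 2.16, 2.89 and 3.75, and within males 1.99, 1.32, 2.59 and 1.84, each from 1 pool over another. With library size alone as the scaling they were 2.97, 2.10, 2.82 and 3.66 in females and 1.31, 0.871, 1.71 and 1.21 in males, so the direction for basal keratins in males depends on the scaling. Male pool 1 stood at 1.52 times female pool 1 for the sum of all keratins, and male pool 2 at 1.02 times female pool 2.

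Other gene lists differed between the pools as well. Epithelial markers stood at 1.45 times in females and 1.33 times in males, pool 2 over pool 1 in summed normalized CPM, and mTEC markers at 1.56 and 1.49 times. The epithelial sum rests mostly on Spint2, at 241, 348, 226 and 306 normalized CPM. Median log2 fold changes were 0.84 for the 7 epithelial markers tested and 0.80 for the 6 mTEC markers tested, and none of them was called. Of the 7 epithelial markers 6 were above 0, and Cdh1 was below at -0.65. With library size alone as the scaling the male ratios turned to 0.876 for epithelial and 0.979 for mTEC markers, and the female ratios were 1.42 and 1.52. The sum of all keratins was 3.66, 8.95, 4.67 and 7.50 times the level of Epcam in the 4 pools, and 7.01, 12.0, 10.4 and 13.4 times that of Aire. B cell markers stood at 0.659 and 0.666 times, myeloid markers at 1.64 and 2.85 times and fibroblast markers at 2.93 and 1.12 times, with the male fibroblast ratio at 0.736 with library size alone. Thymocyte markers stood at 0.853 and 0.422 times and cortical epithelial markers at 1.16 and 1.63 times. With library size alone the male ratios were 0.439 for B cell, 1.88 for myeloid, 0.278 for thymocyte and 1.07 for cortical epithelial markers. The female ratios were then 0.644, 1.60, 0.833 and 1.13. None of the 7 B cell genes tested was called, and their median log2 fold change was -0.75. The part of these lists in the keratin differences was not tested.

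**Figure D5:**
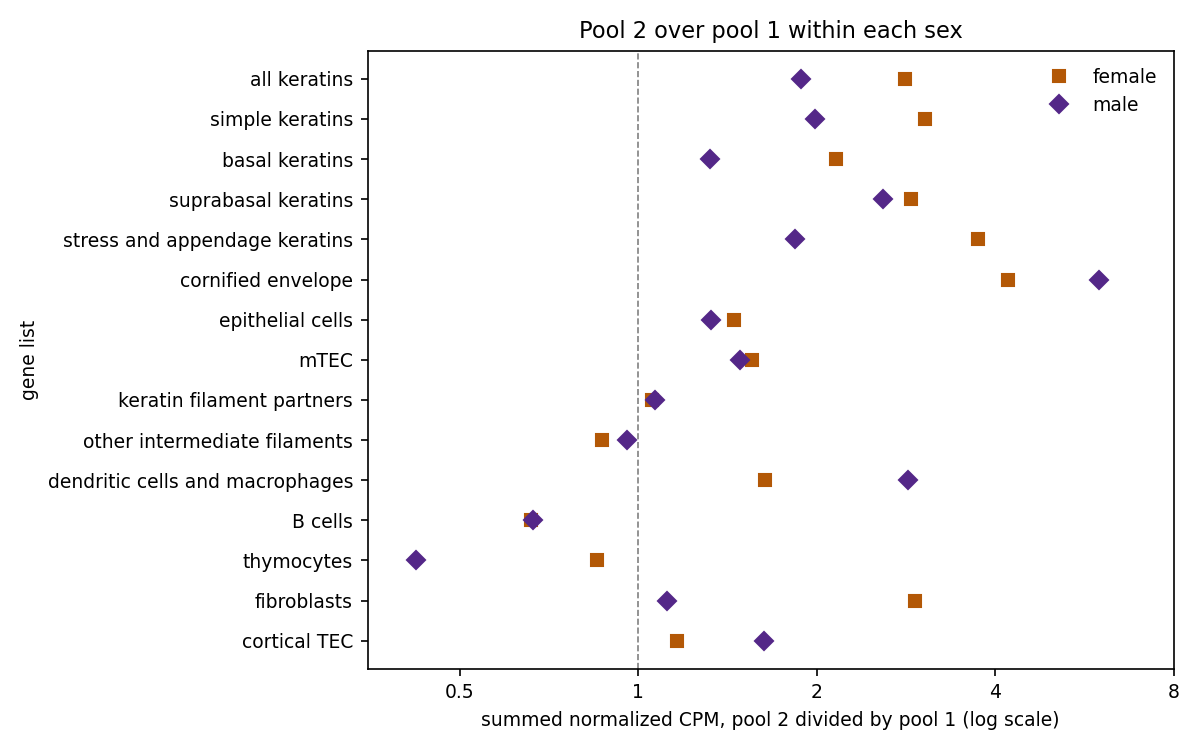
Summed level of a gene list in pool 2 divided by that in pool 1 (horizontal axis, log scale, TMM normalization) for keratin classes and other lists (vertical axis), as squares for females and diamonds for males, 1 pool over another each. All keratins lie at 2.81 and 1.89, keratin filament partners at 1.05 and 1.07, and B cell markers at 0.659 and 0.666.

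The genes that keratin filaments work with were not called in either comparison. The 14 partners, which are desmosome and hemidesmosome proteins and linkers, summed to 145, 153, 135 and 144 normalized CPM, or 1.05 times in females and 1.07 times in males, pool 2 over pool 1, with the male ratio at 0.703 with library size alone. They were led by Pkp3, a plakophilin of desmosomes, at 47.8, 51.0, 45.3 and 38.5, by Jup, the plakoglobin that links desmosomal cadherins to filaments, and by Plec, the linker protein plectin. The sum rests largely on these genes, and members with few counts did not all follow it. Dsp had 0.544, 1.98, 1.08 and 2.70 normalized CPM, from 2, 4, 9 and 7 counts. Ppl had 1.90, 0.990, 1.43 and 0.770, from 7, 2, 12 and 2 counts. Neither was tested. Dsp, Ppl, Dst and Itga6 were chosen after their values were seen. Dst, the linker dystonin, had 11.4, 13.4, 11.6 and 43.5 and stood apart in male pool 2 alone, Itga6, an integrin of hemidesmosomes, had 8.97, 5.94, 9.32 and 3.08, and Plec had 34.5, 26.2, 25.6 and 17.3. Of the 6 tested, 0 were called for pool number or for sex by edgeR's quasi-likelihood test, beside 2.03% and 0% of all tested genes. The 6 had a median log2 fold change of -0.05 for pool 2 over pool 1. Other intermediate filament genes, led by Vim, Lmna and Lmnb1, with Vim, the vimentin of mesenchymal and blood cells, at 899, 797, 661 and 701, summed to 1450, 1261, 1105 and 1056. Of the 5 tested, 0 were called in either comparison, beside the same shares of all genes, and their median log2 fold change was -0.20.

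Genes of the cornified envelope, the protein shell of the outermost epidermal cells, were led by Krtdap and Sprr1a, which carried most of the difference between the pool numbers. The 11 of 12 that were in the table summed to 12.2, 51.5, 16.4 and 97.8 normalized CPM, or 4.21 times in females and 5.97 times in males. Without Krtdap and Sprr1a the other 9 stood at 3.45 and 1.89 times. With library size alone as the scaling the list stood at 4.11 times in females and 3.94 in males, and the other 9 at 3.37 and 1.24. Of the 3 tested, 2 rose in pool 2, beside 1.86% of all tested genes. Krtdap, a secreted protein of differentiating keratinocytes, had 2.99, 13.9, 2.63 and 50.4, a log2 fold change of 3.55 (SE 0.58, adjusted p = 0.0391 by edgeR's quasi-likelihood test). Sprr1a, a small proline-rich precursor of the envelope, had 4.08, 19.8, 6.81 and 34.3, a log2 fold change of 2.26 (SE 0.38, adjusted p = 0.0391). Both kept their call under all 10 alternatives, with the log2 fold change of Krtdap at 2.31 without male pool 2 and 4.22 without female pool 2, and that of Sprr1a between 1.78 and 2.73. Sbsn, a secreted protein of the upper epidermis, had 0.815, 7.92, 1.79 and 4.24 and was not called. Dsc1 and Cdsn, proteins of cell junctions in cornifying layers, had no count. Neither of the genes that rose was called between the sexes.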

How the data were processed

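The authors used Trimmomatic to take out reads of low quality, aligned 50-base reads of polyadenylated RNA to mm9 (TopHat2) and made counts for each gene (HTSeq-count). Versions, gene annotation and strand setting are not given in the sources used here. The deposited counts are raw and cover 23366 symbols. The 5 rows of reads not assigned to a gene held 66.9% to 70.2% of what the table lists for a library and were left out of every fit.

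Counts were tested with edgeR 4.0.16 in R 4.3.3: filterByExpr with a minimum count of 10, library sizes summed over the 10865 genes kept, TMM (factors 1.05, 1.03, 1.18 and 0.780 in the order used in the text), a prior count of 0.125, the quasi-likelihood test, and Benjamini-Hochberg adjustment over all genes tested, two-sided at 0.05. Sex was the only term of one fit and pool number of the other. Standard errors are log2 fold changes over the root of F. Nothing in the labels says that pools came from separate experiments on separate days, so p-values measure the spread between these 4 pools. Alternatives were DESeq2 1.42.0, edgeR's exact test, upper-quartile normalization, scaling by library size alone, testing all genes with counts, the other factor as a second term, and each pool left out. Levels per exon window found once, levels per kb of coding sequence, within-sex ratios with library size alone, and the cornified envelope list without its called genes were added after seeing the data. The tests were tried on simulated data with known changes, and the outcome is not reported here.

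Members, classes, lists and the comparison of pool numbers were chosen with earlier results of these data known. Keratins with at least 10 counts in all were named with their values and the others by class. Of each other list the 3 most abundant members and any called gene were named, except for 1 that is not reported here. Exon windows (50 bases, exact matches) and coordinates come from NCBIM37 and its GENCODE annotation, in which 21048 symbols (90.1%) had one entry. Promoter letters come from a RefSeq table of a later assembly, of which no coordinates were used.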

Additional observations from a re-analysis of the deposited data

Results flagged for a closer look

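In 3 of the 11 tested keratins the pools numbered 2 lay above those numbered 1 in one sex and below in the other with TMM normalization. Each value is 1 pool over another, and the difference between the sexes was not tested. Krt14 had a log2 of pool 2 over pool 1 of 0.97 in females and -0.25 in males, a difference of 1.22. The counting intervals of the ratio (exact binomial, 95%) were 1.11 to 3.48 in females and 0.513 to 1.33 in males. Krt20 had 4.45 in females and -0.12 in males, a difference of 4.57, and the female ratio of 21.8 rests on 1 count in pool 1, with an interval of 3.23 to 934. The male interval was 0.304 to 2.36. Krt222 had -0.97 in females and 0.12 in males, a difference of -1.10, with intervals of the ratio of 0.260 to 0.937 and 0.648 to 1.77. With library size alone as the scaling, Krt222 had -1.01 in females and -0.48 in males, so the opposite direction was lost, while Krt14 had 0.94 and -0.85 and Krt20 had 4.41 and -0.72.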

How the results depend on the processing

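No tested keratin passed the threshold between the sexes under any alternative run, and the directions were unstable: leaving out 1 pool gave log2 fold changes of -0.35 to 1.17 for Krt8, -0.42 to 1.29 for Krt18, -0.42 to 1.48 for Krt17, -0.71 to 1.49 for Krt19, -1.24 to 0.44 for Krt10, -0.089 to 1.17 for Krt7, -1.28 to 3.07 for Krt20, -0.44 to 0.55 for Krt14 and -0.66 to 0.29 for Krt222. Krt5 (0.33 to 1.89) and Krt16 (0.07 to 2.91) stayed above 0. Krt14 was 0.0096 without the filter and Krt19 -0.10 with library size only. Over all genes the sex comparison called 0, against 5 with library size only, 26 without the filter, 3 with DESeq2 and 8 with edgeR's exact test, and 0 to 631 when 1 pool was left out (631 without male pool 1, 52 without male pool 2). As a replicate block, pool number gave 17 genes and no keratin, with Krt14 at 0.080 and Krt20 at 0.29. All libraries carry the same preparation mark in their names, and the labels give no shared animal or day. Beyond this mark, pools of the same number share only that number. Their pool 2 minus pool 1 differences correlated at 0.52 between the sexes over tested genes.

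For pool 2 over pool 1, 221 genes were called, 764 with library size only, 1504 without the filter, 651 with DESeq2, 1138 with the exact test, 807 with sex as a second term, and 170 to 2810 when 1 pool was left out (362 without female pool 1, 2810 without female pool 2, 170 without male pool 1, 451 without male pool 2). Keratins called numbered 5 without the filter, 4 with DESeq2, 6 with the exact test, 4 with sex as a second term, and 0 to 5 when 1 pool was left out: Krt8, Krt16, Krt17, Krt18 and Krt19 without female pool 2, Krt8, Krt17 and Krt18 without male pool 2, Krt17 without male pool 1 and 0 without female pool 1. Where a sex or number is left with 1 pool, it is assumed to vary like the others. Krt14 was -0.0092 with library size only. The suprabasal ratio was 2.23 with library size only. Leaving out 1 pool, the class ratios of male over female ran from 0.765 to 2.33 (simple), 0.972 to 2.10 (basal), 0.515 to 1.79 (suprabasal) and 0.765 to 2.87 (stress and appendage), and of pool 2 over pool 1 from 1.97 to 3.07, 1.26 to 2.27, 2.59 to 2.89 and 1.85 to 3.73. The cause was not tested. The 37 keratins that were not tested did not pass the filter on low counts at this depth.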

Other observations

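Keratins with a letter after the number and keratin-associated proteins had few reads. The 4 keratins with a letter after the number, Krt6a, Krt6b, Krt33a and Krt33b, had 14 counts in all. Krt33b, a hair shaft keratin, had 6 counts, all in male pool 1, and Krt6a, a stress keratin that shares 101 windows of 50 bases with Krt5, had 0, 2, 2 and 1 counts in female pool 1, female pool 2, male pool 1 and male pool 2. The 52 genes of keratin-associated proteins, which embed hair keratins in the shaft, had 7 counts in all, on 4 genes. Of these, Krtap13-1 had 1 count in female pool 2 and 3 in male pool 1, and Krtap6-5 and Krtap8-1 had 1 each, in male pool 2.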
